A study of Mus musculus with 50 samples.

Results

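The data described here are single-oocyte transcriptomes of 26 fully grown mouse oocytes from 4 floxed females, the control animals of a study of Zfp36l2, an RNA-binding protein gene. All 26 libraries labelled as floxed were used, of 50 in the series, and no knockout library was used. Mouse 1 gave 5 oocytes and mice 2, 3 and 4 gave 7 each. The females carried the floxed Zfp36l2 allele, were 5 weeks old and had been primed with 10 IU of PMSG, a hormone with follicle-stimulating activity. Ovaries were taken 46 hours later, and cumulus-enclosed oocytes were collected in medium with 5 µM milrinone, which holds them at the germinal vesicle stage. Cumulus cells were stripped by pipetting and the zona pellucida by acid. No strain, batch or collection date is given in the labels, so a difference between mice cannot be told apart from a difference between their collections or libraries.

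A germinal vesicle oocyte is arrested in meiotic prophase and, when fully grown, has largely stopped transcribing. It holds a store of mRNA that was made during growth, is partly kept untranslated with short poly(A) tails, and is translated or degraded as meiosis resumes. This store supports the meiotic divisions, fertilization and the first cell cycle of the embryo, and products of many of its genes are needed only then. Because libraries were primed on poly(A) tails, per the kit named in the labels' protocols, a level here is the amount of polyadenylated RNA of a gene relative to all counted genes. A single cell gives 1 library, so the spread between oocytes holds both cell-to-cell differences and the error of amplifying and sequencing 1 cell.

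Counts per oocyte ranged from 1746007 to 6120317, with a median of 4761241. Mouse 2 spanned the widest range, from 1746007 to 5159018, and mouse 3 the narrowest, from 5066690 to 6120317. Values are given as CPM, the count of a gene after scaling each oocyte to a total of 1e6, and the mean of a gene is the mean of the 4 mouse means ± the SD over the mice (n = 4). CPM ranks order genes by their share of counts, which grows with transcript length; amounts of different transcripts are compared as CPM per kilobase. The table holds no mitochondrially encoded gene, so shares are of nuclear genes.

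An oocyte had counts in 13980 ± 245 of the 16614 listed genes (SD, n = 4 mice), from 12801 to 14540. In all 26 oocytes 10732 genes, or 64.6%, had at least 1 count, and 8796 had at least 10. Genes found in every oocyte had a median level of 55.2 CPM, against 0.873 CPM for the 5732 genes found in some. Only 92 genes averaging at least 10 CPM had no count in at least 1 oocyte, and 3 of them had none in 5 oocytes or more. When 23 oocytes were thinned to 3000000 counts each, genes detected ranged from 13296 to 14382.

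The 5 oocyte markers were among the abundant genes of all 26 oocytes, and none of them was absent from any cell. Gdf9 and Bmp15 encode the growth factors by which the oocyte directs its granulosa cells. Zp3 encodes a glycoprotein of the zona pellucida, Nlrp5 a core protein of the subcortical maternal complex, and Mos the kinase that starts the MAPK cascade of meiosis. Nlrp5 averaged 914 ± 96.2 CPM and ranked 10th of all rows, with 743.9 CPM in the lowest oocyte, 884.7 in the median and 1319 in the highest. Bmp15 averaged 799 ± 60.6 CPM, from 672.2 through 786.1 to 1170 CPM. Gdf9 averaged 671 ± 118 CPM, from 488.6 through 610.3 to 1257 CPM. Zp3 ran from 350 through 431.4 to 1030 CPM, and Mos from 260.2 through 308.6 to 576.2 CPM. Per kilobase the order was Gdf9 (374 CPM per kilobase), Zp3 (369), Nlrp5 (268), Bmp15 (261) and Mos (225). Gdf9 and Zp3 differed by less than their spread over mice, as did Nlrp5 and Bmp15. All 5 were densely covered, at 0.95 counts per base or more, so the limit on such counts described next holds for this order.

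Most of the spread of Gdf9, Zp3 and Mos followed the depth of the library. The counts of Gdf9 lay between 2125 and 3073 in every oocyte although the totals differed over a far wider range, and its CPM was highest, at 1257 and 1118, in the 2 shallowest oocytes. The within-mouse SD of log2(CPM + 1), pooled over mice with 22 degrees of freedom, fell from 0.272 to 0.0576 for Gdf9 once a slope on library total was removed, and from 0.307 to 0.0564 for Zp3. For Bmp15 it went only from 0.151 to 0.133. Depth and level were tied among densely covered genes. Among the 208 genes covered most densely, with a mean of at least 0.8 counts per base, the log2 count rose by a median of 0.464 per log2 of library total, against 1.41 among the 763 genes below 0.02 counts per base. The CPM of densely covered genes was therefore mostly higher in shallow oocytes, and levels of such genes are best compared between oocytes of like depth. Long abundant transcripts did not all follow this pattern: the SD of Usp9x was 0.218 before and 0.216 after the slope, and that of Atrx 0.259 and 0.263.

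**Figure D1:**
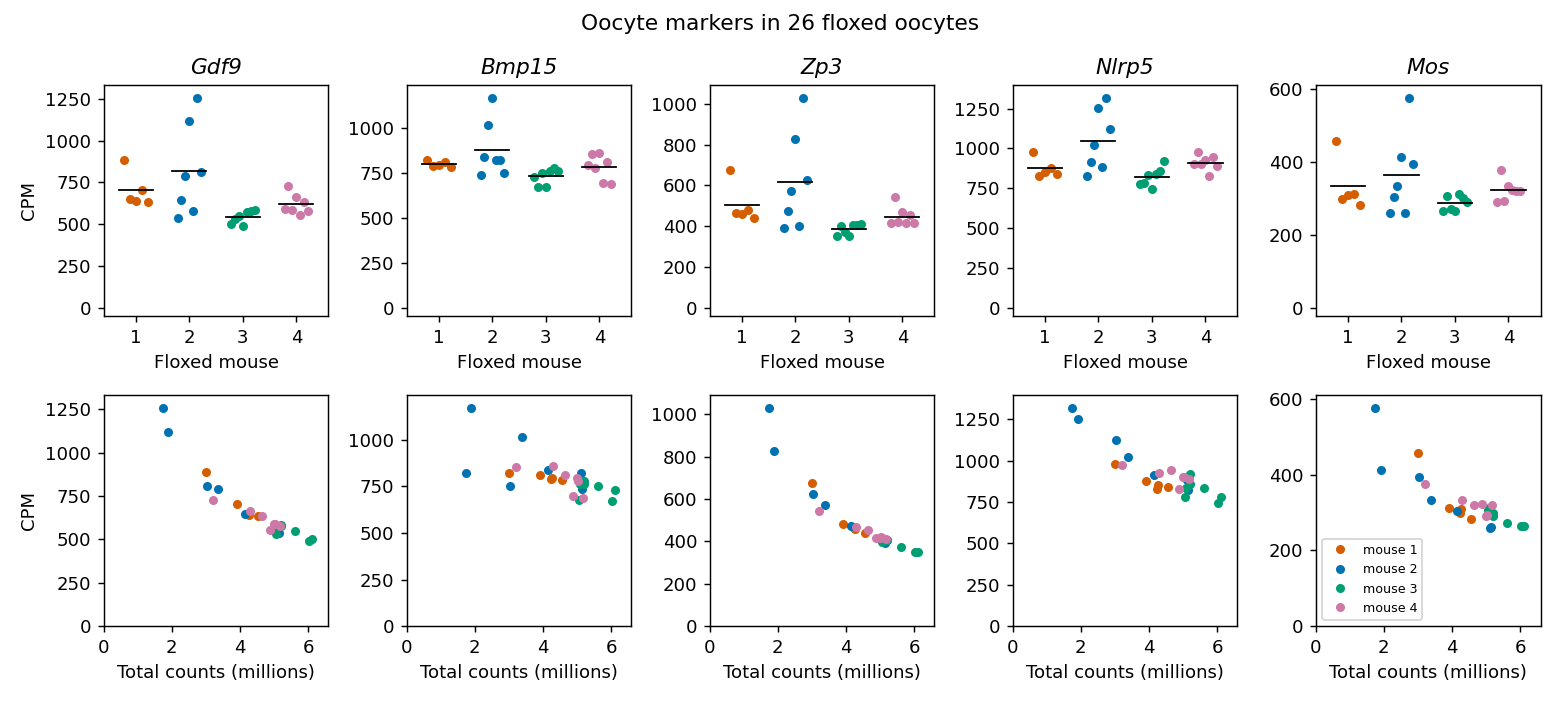
CPM of Gdf9, Bmp15, Zp3, Nlrp5 and Mos in each of the 26 floxed oocytes, by mouse (upper row; bars are mouse means) and against the library total on a 1e6 scale (lower row). Gdf9 and Zp3 fall along a smooth curve as totals rise, from 1257 to 488.6 CPM for Gdf9, while Bmp15 keeps more scatter at any total.

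The ranking of genes by their share of counts was flat. The 10 most abundant genes took 1.05 ± 0.0979% of counts, the top 100 took 6.71 ± 0.574%, the top 1000 took 35.8 ± 1.86% and the top 5000 took 84.6 ± 1.4% (SD, n = 4 mice). By mouse the top 100 took 6.083, 7.402, 6.437 and 6.917% in mice 1 to 4. Counts of densely covered genes rose less than in proportion to library total, and the effect of this on the shares was not tested. At least 10 CPM was reached by 9462 genes, at least 100 CPM by 3363 and at least 400 CPM by 259. Usp9x, an X-linked deubiquitinase gene (chromosome X, 13071498 to 13173328, mm10), led the list at 1273 ± 183 CPM. It ranged from 650.8 to 1613 CPM and was lowest in mouse 1. Cenpf (1174 CPM), Cenpe (853.8) and Bub1b (754.9), which encode 2 kinetochore proteins and a spindle checkpoint kinase, stood among the 20 most abundant rows. So did Mdm4 (1167), a p53 inhibitor, and Dnmt1 (975.9), the maintenance DNA methyltransferase. Spin1 (1053) and Rdx (1034) encode a chromatin reader and a membrane-cytoskeleton linker. Nlrp14 (1036), Nlrp5 and Nlrp4f (743.2) represented the NLRP family, and Padi6 (788.1) the subcortical complex. Atrx (929), Trip12 (913.4), Kmt2c (816.9), Syne2 (891.4), Mtus1 (970.9) and D10Wsu102e (772.5) were also among the 20, with Bmp15.

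Long transcripts weighed on that list, and the order per kilobase was another. Usp9x fell to rank 849 at 107 CPM per kilobase, and Syne2, a nuclear envelope protein gene, to rank 3176. The first rows per kilobase were Gm11545 (1086 CPM per kilobase), Tcl1 (530), Rpl37rt (454), Gm2042 (439), 2500002B13Rik (433), Gm15698 (403), H1foo (396), Ldhb (392), Gm1821 (386) and Gm8801 (384). Tcl1 is a maternal-effect gene that encodes an Akt coactivator, H1foo encodes the oocyte linker histone, and Ldhb the lactate dehydrogenase subunit of the oocyte. Several of the others are unnamed models or ribosomal retrogene copies, for which reads of near-identical genes may be split or shared. All of these first rows were densely covered, at 1.57 counts per base or more, so the limit on such counts holds for this order too.

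Gene groups of the oocyte differed widely in level. All 9 listed zona pellucida and egg surface genes had counts in every oocyte, with a median of 237 CPM per kilobase, and so had all 8 subcortical maternal complex genes (239) and all 19 listed maternal-effect genes in the table (237). Over all 16614 rows the median was 6.51 CPM per kilobase. Zp2, Zp1 and Zp3 had 694 ± 87.6, 553 ± 72.1 and 489 ± 99.2 CPM, and Astl, the protease that cleaves ZP2 after fertilization, had 350 ± 11.2 CPM. Ribosomal proteins had a median of 68.6 CPM per kilobase over 80 genes, the proteasome 102 over 38 genes, and the respiratory chain 87.2 over 89 genes. Glycolysis genes were lower, at 13.3 CPM per kilobase over 17 genes. Among meiotic regulators Wee2, the oocyte kinase that keeps CDK1 inactive, had 570 ± 53.2 CPM and Ccnb1, its cyclin partner, 498 ± 38.1 CPM. Mastl, which encodes the Greatwall kinase, had 475 ± 58.6 CPM.

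RNA regulators and methylation genes were also well represented. Of 26 listed genes for the control of maternal mRNA, 24 had counts in every oocyte. Igf2bp2 had 470 ± 66.2 CPM, Cnot6l, a deadenylase subunit gene, 461 ± 46.6 CPM, and Cpeb1, which binds elements for cytoplasmic polyadenylation, 437 ± 78.1 CPM. Tet3, the dioxygenase that acts on the paternal genome after fertilization, had 609 ± 31.9 CPM and Uhrf1, a partner of DNMT1, 384 ± 49.1 CPM. Among listed oocyte transcription factors, Nobox had 446 ± 50.4 CPM, Lhx8 124 ± 58.6 CPM and Figla 50.4 ± 8.78 CPM. Listed genes that the early embryo activates were not all at background: Tcstv1 had 121 ± 7.94 CPM and Zscan4d 34.0 ± 11.2 CPM, while Dux had 1.03 CPM. Zscan4 genes are near-identical copies, so their counts are uncertain one by one.

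Markers of somatic ovarian cells were present in part. Of 25 listed granulosa and cumulus genes, 22 are in the table, and their summed level ran from 121.4 to 482.7 CPM with a median of 256.6. Cyp19a1, the aromatase gene, took the largest part of the summed CPM, at 81.3 ± 21.4 CPM and was at 32.36 CPM or more in every oocyte. Nr5a2 had 49.5 ± 8.15 CPM, from 28.1 to 68.19 CPM. Foxl2, a defining transcription factor of granulosa cells, had no count in 16 of 26 oocytes and at most 2.67 CPM, and Wt1 had none in 23. The lowest limit that 0 counts allows, 3 counts of the total, was 0.49 CPM in the deepest oocyte and 1.72 CPM in the shallowest. It takes counts as independent, and 62.5% of counts from 1 to 20 were even, so the limit may be higher. Grem1, a cumulus gene, reached 55.9 CPM and had no count in 8 oocytes. The within-mouse correlation of the summed list with the first component described below was -0.497 (n = 26), and -0.0897 with the first component left after the slope on library total. Of the 6 listed theca, stroma, blood and vessel genes in the table, Pecam1 had 148 ± 39.3 CPM in all oocytes, and Cyp17a1 had no count in 22.

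Within a mouse, most genes differed little between oocytes. Over the 9462 genes averaging at least 10 CPM, the median within-mouse SD of log2(CPM + 1) was 0.306. By mouse the median was 0.251 in mouse 1, 0.36 in mouse 2, 0.238 in mouse 3 and 0.251 in mouse 4, so mouse 2, with the widest range of depth, was also the most variable. Spread fell with abundance, from a median of 0.58 at 10 to 20 CPM to 0.289 at 50 to 100 CPM and 0.163 at 400 CPM or more. Removing the slope on library total lowered the overall median to 0.274, and removing a trend on GC content and length as well lowered it to 0.251. Without the 3 oocytes under 3000000 counts it was 0.264.

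**Figure D2:**
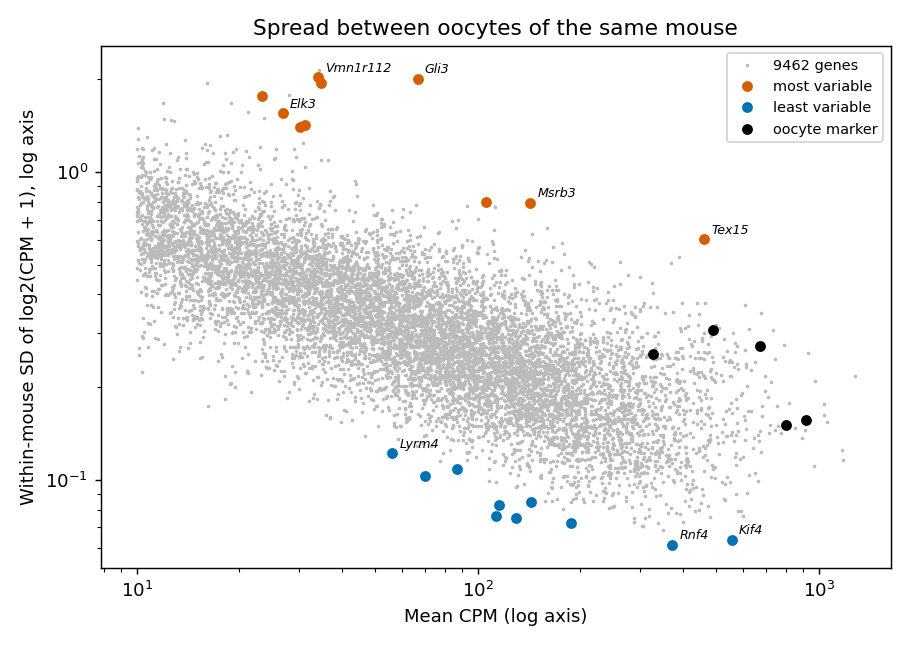
Within-mouse SD of log2(CPM + 1) against mean CPM, both on log axes, for 9462 genes (grey), with the 10 most variable (orange) and 10 least variable (blue) genes relative to the trend and the 5 oocyte markers (black). Spread falls as abundance rises, and Gli3, Vmn1r112 and Tex15 lie far above genes of like abundance.

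Other genes differed little between oocytes of the same mouse. Of the 10 named here 6 were called between mice (edgeR), where 37.5% of all tested genes were. They were picked for a small within-mouse spread, which favours a call, so this count is a description. Rnf4, a SUMO-targeted ubiquitin ligase gene, had the smallest SD of all, 0.0616, with 325.3 CPM in the lowest oocyte and 408.1 in the highest. Chchd3, which encodes a protein of mitochondrial cristae junctions, ran from 104.3 to 133.3 CPM (SD 0.0763), and Exosc1, an RNA exosome subunit gene, from 102.3 to 126.6 CPM (SD 0.0826). Kif4, a chromokinesin gene, had an SD of 0.0638 at 556 ± 67.7 CPM. Hspa14, Sar1a, Lyrm4, Adk, Psmd10 and Snapc5 completed the 10 genes with the smallest spread for their level, at 0.0722 to 0.122. Of usual reference genes, Sdha was steady (SD 0.0913, 206.2 to 267 CPM) and Ywhaz close to it (0.109), whereas Rplp0 had 0.271. Gapdh had 17.9 CPM with an SD of 0.339, and Gusb had no count in 18 oocytes.

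At the other end, a few genes ranged from near 0 to high levels between oocytes of the same mouse. Gli3, a transcription factor gene of the hedgehog pathway (chromosome 13, 15463235 to 15730026), averaged 66.6 ± 21.4 CPM. In mouse 3 it was at 0.7666 CPM in 1 oocyte and at 174.7 CPM in another, and in mouse 4 it ran from 2.313 to 147.7 CPM. Below 5 CPM lay 3 oocytes, from mice 2, 3 and 4, and 19 were above 20 CPM. Its within-mouse SD was 2.01, or 6.73 times the value of the trend at its abundance, and was 1.97 after the slope on library total. Elk3, an ETS factor gene, ran from 0.5098 to 61.17 CPM in mouse 1 and from 0.2155 to 53.78 CPM in mouse 4. Fxyd6, which encodes a regulator of the sodium pump, ran from 1.569 to 53.09 CPM in mouse 3, and Krt76, a keratin gene, from 0 to 45.37 CPM in mouse 1. The edgeR test between mice called none of these 4 genes (adjusted p = 0.764 for Gli3, 0.835 for Elk3, 0.707 for Fxyd6 and 0.202 for Krt76). It called 37.5% of all tested genes. These 4 were picked for a large spread between oocytes of a mouse, against which the test weighs the mice. A call was therefore unlikely from the start, and its absence does not show that the mice were alike.

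A trio of vomeronasal receptor genes on chromosome 7 varied together. Vmn1r112, Vmn1r157 and Vmn1r132 encode putative pheromone receptors and had SDs of 2.03, 1.95 and 1.76. Vmn1r112 was at 51.04 CPM or more in all 5 oocytes of mouse 1. In mouse 3 it had no count in 3 oocytes, 13.14 and 13.85 CPM in 2 and 39.47 and 40.05 CPM in the others. Their centred log2 values correlated at 0.989 to 0.995 (n = 26 oocytes), and the first 90 coding bases, shown to make their likeness visible, differ at 2 positions, in capitals (mm10, 5′ to 3′, plus strand).
Vmn1r112, chr7:20771185-20771274: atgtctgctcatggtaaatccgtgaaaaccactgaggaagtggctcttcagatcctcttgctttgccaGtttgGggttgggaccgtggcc
Vmn1r157, chr7:22761697-22761786: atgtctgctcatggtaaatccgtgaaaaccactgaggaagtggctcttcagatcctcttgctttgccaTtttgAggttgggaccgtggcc
Vmn1r132, chr7:21614092-21614181: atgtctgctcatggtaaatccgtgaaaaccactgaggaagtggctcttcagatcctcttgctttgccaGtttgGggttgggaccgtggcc
Vmn1r112 and Vmn1r132 are the same over all 90 bases, and Vmn1r157 shares 88 of 90 with each. Reads of these copies could be counted for more than 1 of them, so they are best read as 1 signal.

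Tex15, Msrb3 and Trim59 varied at higher levels. Tex15, a germ cell gene needed for meiosis in males, averaged 462 ± 70.9 CPM and was at 122.6 and 158.1 CPM in 2 of the 3 shallowest oocytes. Its SD was 0.606, and 0.451 after the slope on library total. Msrb3, a methionine sulfoxide reductase gene, ran from 26.92 to 313.4 CPM (SD 0.795). Trim59 ran from 5.727 to 218.7 CPM and averaged 172.4 CPM in mouse 1 against 63.78, 99.28 and 88.21 CPM in mice 2 to 4.

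**Figure D3:**
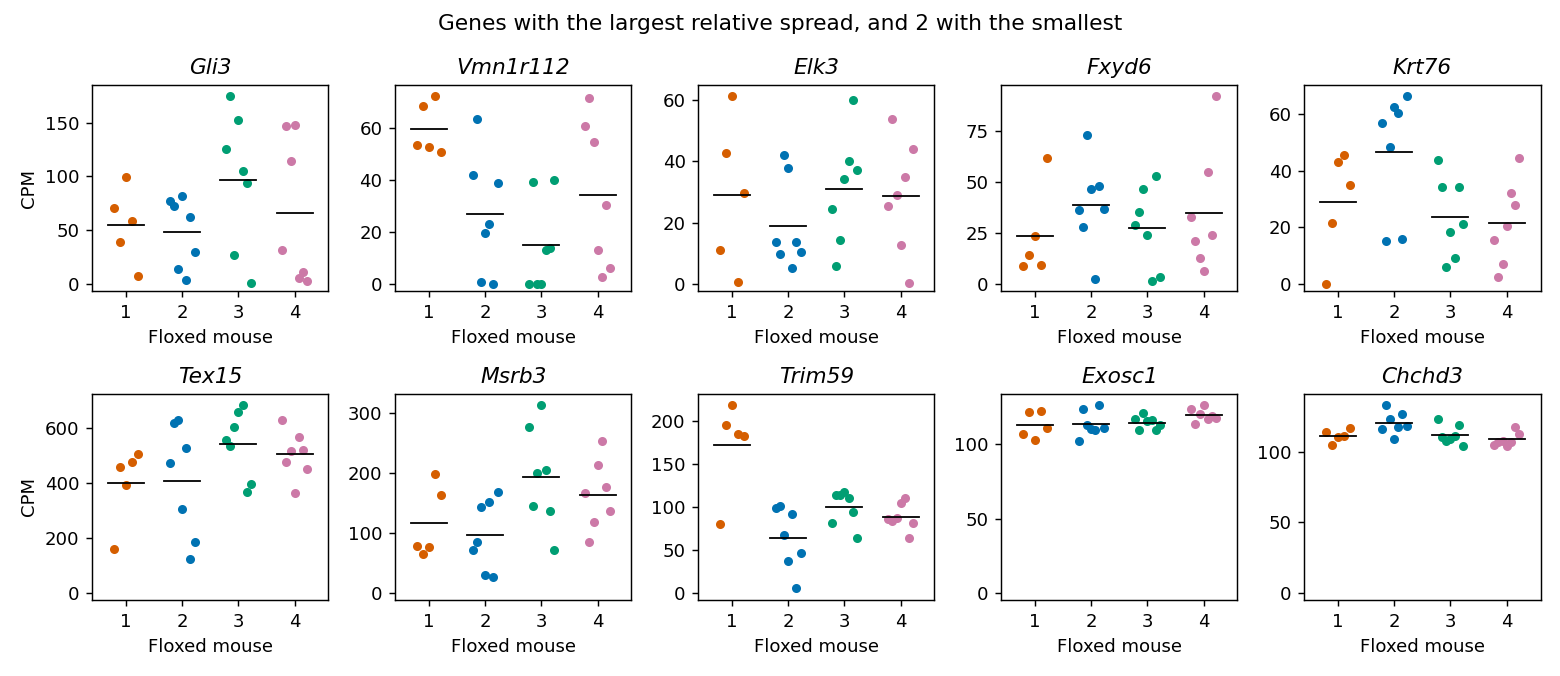
CPM of 8 of the 10 genes with the largest within-mouse spread for their abundance, and of Exosc1 and Chchd3 from the 10 with the smallest, in each oocyte by mouse; bars are mouse means. Gli3 and Vmn1r112 lie at or near 0 in some oocytes and above 50 CPM in others, while Exosc1 stays between 102.3 and 126.6 CPM.

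The largest shared pattern within mice ran with depth and base composition. The first principal component of the centred values held 22.9% of the within-mouse variance over 9462 genes. Its score correlated at -0.849 with log2 library total, at -0.757 with genes detected and at 0.883 with the GC content of the counted transcripts (n = 26, which share library and depth). Across genes, its loadings had a Spearman correlation of 0.601 with transcript GC and -0.414 with length. The 5% of genes with the highest loadings had a median GC of 56.7% and a median length of 1356 bases, against 42.3% and 3892 bases for the lowest 5%. The component took 40.9% of the variance of mouse 2 and 33.5% of mouse 1, but 4.45% and 5.49% in mice 3 and 4. When it was computed from 3 mice, it held 22.1% of the variance of mouse 1, and 8.56%, 2.41% and 3.52% for mice 2, 3 and 4 in turn. After the slope on library total the first component held 15.7% and still ran with GC (Spearman 0.671 across genes). After GC and length were also removed, the first component held 12.5% and, taken from the other mice, at most 2.74% of the variance of the mouse left out. Without the 3 oocytes under 3000000 counts the first component held 15.8%.

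**Figure D4:**
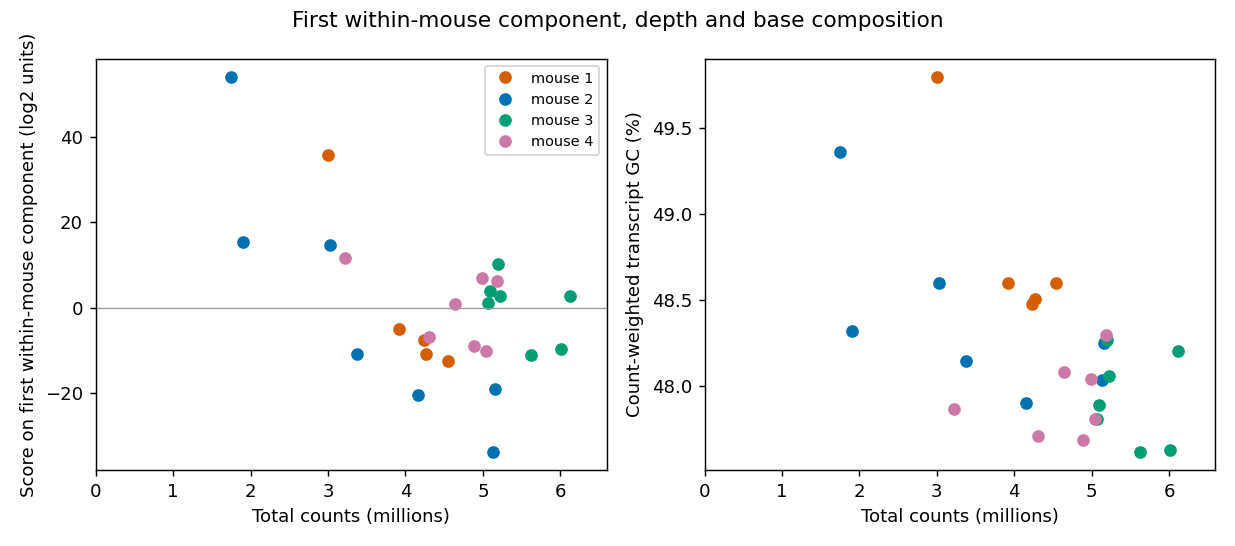
Score of each oocyte on the first within-mouse component (left, log2 units summed over genes and weighted by loading) and GC content of the counted transcripts in percent (right), against library total in units of 1e6 counts. The highest scores, 53.92 and 35.66, belong to the shallowest oocytes of mice 2 and 1.

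Histone H2B genes led the high end of that component. Hist1h2bh, Hist1h2bj, Hist1h2bg, Hist1h2be and Hist1h2bk had 5 of its 8 highest loadings, with B3gnt7, Ccdc124 and Hoxa7. Hist1h2bg averaged 48.65, 42.06, 6.928 and 7.848 CPM in mice 1 to 4 and ran from 1.588 to 82.47 CPM over all oocytes. Within mice the 6 H2B genes above 10 CPM correlated at 0.787 to 0.953, and at 0.659 to 0.932 after the slope on library total (n = 26). Their first 90 coding bases are printed to show how alike the copies are, with the 6 positions that differ in capitals (mm10, 5′ to 3′).
Hist1h2bh, chr13:23543263-23543352, minus strand: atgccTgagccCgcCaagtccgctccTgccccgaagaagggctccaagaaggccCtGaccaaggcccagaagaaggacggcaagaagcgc
Hist1h2bj, chr13:22043230-22043319, plus strand: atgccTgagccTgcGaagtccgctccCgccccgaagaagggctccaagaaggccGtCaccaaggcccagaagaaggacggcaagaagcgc
Hist1h2bg, chr13:23571433-23571522, plus strand: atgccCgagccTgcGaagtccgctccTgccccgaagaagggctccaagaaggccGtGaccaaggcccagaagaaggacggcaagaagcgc
They share 85 to 87 of 90 bases, so reads may again be split between copies. Replication-dependent histone mRNAs mostly end without a poly(A) tail, and 51 of them are in the table, with a summed level of 114.5 to 1044 CPM per oocyte. The low end of the component held Defb41, Sh3bgrl, Tmem27, Gabra5, Rlf, Ddx60, Trim35 and Trpc5os, at 10.1 to 29.3 CPM on average, and all of them but Rlf had no count in at least 1 oocyte.

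Some gene groups varied together within mice. The mean correlation between members above 10 CPM was 0.806 for replication-dependent histones (8 of 51 genes, of which 6 are H2B copies), 0.697 for ribosomal proteins and 0.397 for the respiratory chain, against 0.0155 between all genes (n = 26). After library total, GC and length were removed it was 0.536, 0.205 and 0.0127. For the 5 markers it went from 0.738 to 0.25 after the slope on library total and to 0.0359 after GC and length. Gdf9 followed Padi6, Pttg1 (the securin gene) and Zp2 most closely, with median within-mouse correlations of 0.992, 0.984 and 0.982 over 4 mice. Zp3 followed Ldhb (0.996), H1foo (0.992) and Asf1b (0.991), and Nlrp5 followed Zp2 (0.971), Padi6 (0.964) and Oas1c (0.957). Mos followed Tcl1b1 (0.988), Pcgf1 (0.986) and Elof1 (0.981). Bmp15 had weaker partners, Zp2 (0.856), Spin1 (0.833) and Nlrp5 (0.831). All partners were picked as the highest among many genes, and some were weak in a single mouse. In mouse 3 Bmp15 with Spin1 was at 0.0767 and Zp3 with Asf1b at 0.492. These partners are those of the values as computed. After the slope on library total the closest were others except Padi6 for Gdf9 (0.92) and H1foo for Zp3 (0.941). Cpa1 led for Gdf9 (0.937), Skp1a for Bmp15 (0.942), Lcp1 for Nlrp5 (0.875) and Pop7 for Mos (0.964). Single mice were lower here too, with H1foo at 0.314 in mouse 3, Lcp1 at 0.383 in mouse 2 and Pop7 at 0.384 in mouse 4. The correlation of Bmp15 with Mos turned from 0.245 to -0.675 with the slope removed and that with Zp3 from 0.439 to -0.358, so their sign depended on whether depth was removed. Gene-by-gene correlations computed in each mouse alone agreed weakly between mice, at r = 0.153 to 0.52 over 1894 genes, and at 0.028 to 0.19 over 1891 genes after library total, GC and length. These genes are a subset of those averaging 50 CPM or more. Each mouse gave only 5 or 7 oocytes, so weak agreement does not show that co-variation differed between mice.

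For many genes the mice differed by more than the spread between their own oocytes would give. Between-mouse differences took a median of 33.6% of the variance of a gene, where 12% is the value with no mouse difference. Mean log2 levels correlated at 0.989 between mice 3 and 4 and at 0.881 between mice 1 and 3 (9462 genes, which are not independent replicates). With oocytes as units, edgeR's quasi-likelihood test called 4964 of 13226 genes between the 4 mice, 37.5% (adjusted p under 0.05). This compares these 4 animals and their libraries, and oocytes of a mouse share an animal, so it does not speak for mice in general. Mouse 1 stood apart: it differed from mice 2, 3 and 4 in 2343, 4194 and 3877 genes (17.7%, 31.7% and 29.3%). Mouse 2 differed from mice 3 and 4 in 2507 and 1327 genes (19% and 10%). Mice 3 and 4 differed in 2 genes (0.0151%), 1700112E06Rik and Erdr1, named after their values were seen. Between these 2 mice 640 of 13226 genes had an unadjusted p under 0.05 (edgeR), no more than the share of 0.05 that chance gives. With library total in the model, mice 2 and 3 differed in 82 genes and mice 2 and 4 in 330. Without mouse 1 the test over the mice called 1806 genes.

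Genes high in mouse 1 gave the smallest p-values, and for the 8 smallest its oocytes did not overlap those of the other mice. These genes were picked by p, so the lack of overlap is a description. The share of all tested genes without overlap is not given here. Ier5l, an immediate early response gene, had 162.3 to 271.5 CPM in mouse 1 and at most 11.88 CPM in any other oocyte (adjusted p = 2.95e-17, edgeR; log2 difference from the mean of the others 5.80). Cebpb, a transcription factor gene, had 75.1 to 123.8 CPM against at most 8.001 (log2 difference 5.04, adjusted p = 1.31e-12). Shisa8 had 152.6 to 238.9 CPM against at most 34.5, and Orai1, the store-operated calcium channel gene, 167.8 to 215.8 CPM against at most 56.7. Pithd1, C1qbp, Taf10 and H2-Ke6 completed the 8 smallest, with log2 differences of 1.83 to 3.24. The same mouse was highest for 2142 of the called genes and lowest for 1730. The 2288 called genes of at least 10 CPM with mouse 1 above the mean of the other mice had a median GC of 53.2% and length of 2191 bases, and the 2199 below it 46.6% and 3692 bases; the part of base composition in the difference was not tested.

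**Figure D5:**
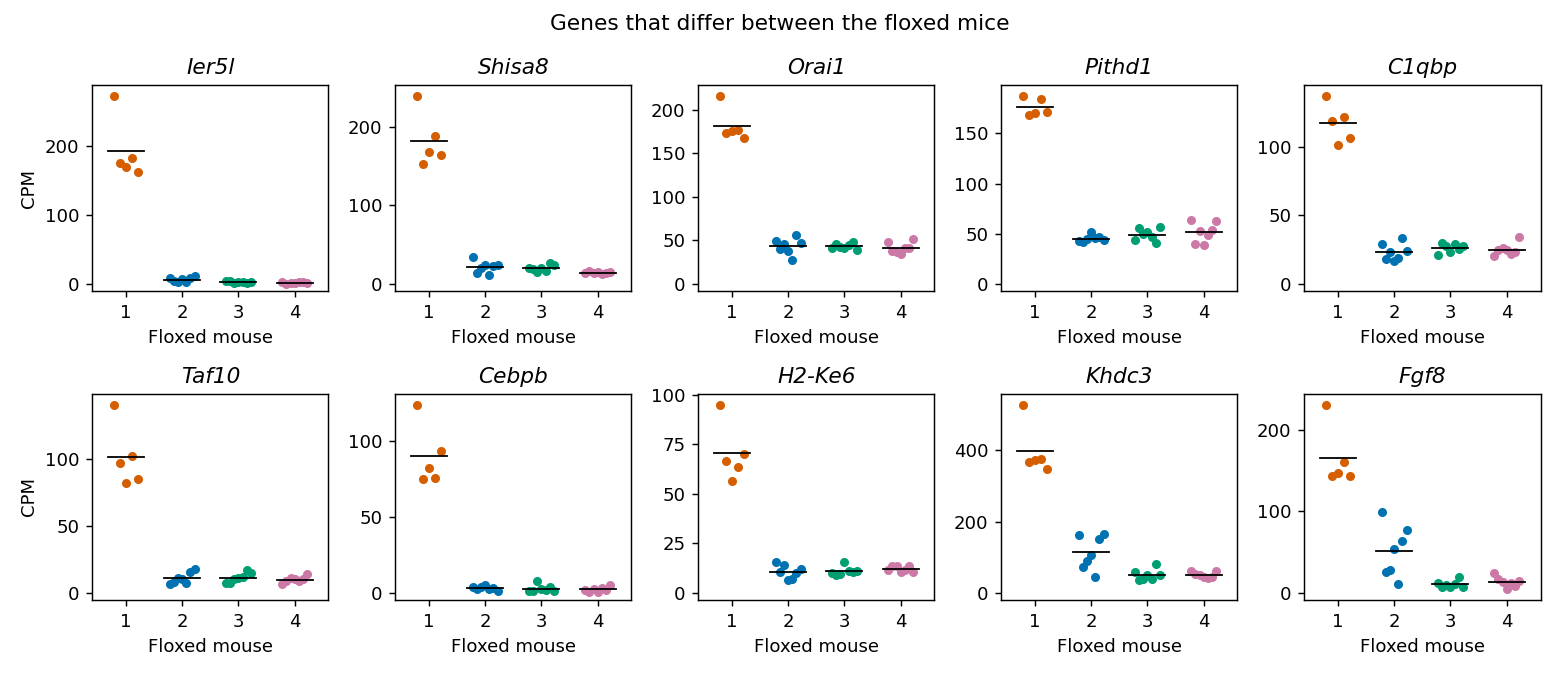
CPM in each floxed oocyte, by mouse, of the 8 named genes with the smallest p-values between mice and of Khdc3 and Fgf8; bars are mouse means. All 5 oocytes of mouse 1 lie above every oocyte of mice 2 to 4 for each of the 10 genes. The 8 were picked by p, so for them this is a description.

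Oocyte genes also differed between the mice, though not all were highest or lowest in mouse 1. The edgeR test called each of the 8 subcortical maternal complex genes, against a rate of 37.5% over the full tested set. That set includes genes under 10 CPM. From 10 CPM up, where all 8 lie, the rate was higher, with 4973 genes not called. Those called were 2288 with mouse 1 above the mean of the others and 2199 with it below. Of the 8 complex genes, 2 were highest and 2 lowest in mouse 1. Padi6 and Nlrp5 had their highest means in mouse 2, at 973.9 and 1048 CPM. Khdc3, which encodes a member of that complex, had 348.9 to 527.8 CPM in mouse 1, 44.83 to 164.6 in mouse 2, and at most 79.63 and 62.26 CPM in mice 3 and 4 (adjusted p = 5.93e-12). All 5 genes of the list of secreted factors and Kit were called, beside the same 37.5% over all tested genes. These 5 also lie from 10 CPM up, where the rate was higher. Fgf8, which encodes an oocyte factor that acts on cumulus metabolism with BMP15, averaged 164.6, 51.1, 10.59 and 13.57 CPM in mice 1 to 4 (adjusted p = 6.40e-10). Kit, the receptor for granulosa Kit ligand, was lowest in mouse 1, at 229.2 to 330.9 CPM (adjusted p = 6.47e-06), and Bmp6 highest, at 111.2 to 127.7 CPM (adjusted p = 4.93e-06). Of 5 tested oocyte transcription factors 3 were called (60%), beside 37.5% of all tested genes and a higher rate from 10 CPM up. On that list 5 genes lie from 10 CPM up, so the count is not read as a result. Lhx8 averaged 201.4 CPM in mouse 1 and 135.9, 82.79 and 74.3 CPM in mice 2 to 4. Among markers Gdf9, Bmp15, Zp3 and Nlrp5 were called and Mos was not (adjusted p = 0.0872), and each had its highest mean in mouse 2, which holds the shallowest oocytes. Of 23 stress and immediate-early genes tested, 12 were called (52.2% against 37.5% of all genes), 11 of them highest in mouse 1, as were 2142 of the 4964 genes called in all. Replication-dependent histones were called in 37 of 39 tested (94.9%), 28 of them highest in mouse 1. Ribosomal proteins were called in 27 of 79, or 34.2%, near the share of all tested genes.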

How the data were processed

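The authors deposited read counts per gene for each oocyte in a single table; alignment with STAR to mm10 is named in the submitters' processing notes, and the sources used here do not name the counting tool or how it treated shared reads. Libraries were made with a SMARTer low-input kit, per the labels' protocols, without molecular identifiers, so intervals and floors cover counting error only. Even numbers made up 62.5% of counts from 1 to 20. Rows were matched to GENCODE annotation of mm10 by RefSeq accession (16350) or symbol (186), and 78 were not matched. D10Wsu102e was matched to a transcript record far longer than a usual mRNA, so its level per kilobase is not given. Symbols had become dates in 24 rows.

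CPM was computed from the deposited counts. Values were centred within mouse on the log2(CPM + 1) scale for genes averaging at least 10 CPM, and the SD pooled over mice. Genes were tested between mice with edgeR 4.0.16 in R 4.3.3 (quasi-likelihood test after TMM scaling, filterByExpr at its minimum count of 10, Benjamini-Hochberg adjustment), with DESeq2 1.42.0 as an alternative. Over 73 pairs of oocytes of the same mouse, the chi-square of their counts per degree of freedom was 5.41 to 29.12, so none was taken for a copy. Spread is given relative to a smooth trend on abundance. Scripts ran in Python 3.11.15 and were tested on simulated data.

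Members and gene lists were chosen with earlier results of these data known. Genes named by rule (164) were the 5 markers, the 20 most abundant by CPM and 10 per kilobase, the 10 with the largest (from 20 CPM up) and 10 with the smallest (from 50 CPM up) relative spread, the 8 highest and lowest loadings, the 8 smallest p between mice, 3 partners of each marker, and in each of 21 lists up to 4 most abundant and 2 most variable members. Unnamed models were left out except from the abundance ranking. Of the named genes, 2 are not reported here. Other genes of the lists were chosen after their values were seen.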

Additional observations from a re-analysis of the deposited data

Results flagged for a closer look

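Of 204 groups of oocytes or mice examined for a single value far from the others (Dixon's test at 95%), 19 stood out; chance gives about 1 in 20 groups. In mouse 1, oocyte 5, its shallowest, lay apart from the other 4 in the GC content of counted transcripts (49.79%), in its score on the first component (35.66), and in Gdf9 (885.4 CPM), Zp3 (675.9 CPM) and Mos (458.4 CPM). In mouse 4, oocyte 1 had the highest summed level of granulosa and cumulus genes (482.7 CPM) and oocyte 2, its shallowest, the highest Zp3 (543.1 CPM).

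Mouse 1 had a mean far above the 3 other mice for Ier5l (192.1 CPM), Shisa8 (182.3), Orai1 (182.1), Pithd1 (176.3), C1qbp (117.3), Taf10 (101.1), Cebpb (89.97), H2-Ke6 (70.29), Bmp6 (121.8) and Insig1 (230.8), and far below them for Psmd2 (220.8 CPM). Mouse 2 was apart for Igf2bp2 (568.6 CPM). The 8 first named were chosen for their p between mice, so their standing apart is a description.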

How the results depend on the processing

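The count of genes that differed between mice was 4892 with DESeq2 size factors, 5065 without a filter, 3772 with library total as covariate, 4068 without the 3 oocytes under 3000000 counts and 5660 by DESeq2's likelihood ratio test, and 1806 to 4777 when a mouse was left out. For mice 2 and 3 it was 82 with library total as covariate and 1451 without those oocytes, for mice 2 and 4 it was 330 and 645, and for mice 3 and 4 it was 1 with the covariate and 1 to 3 when another mouse was left out of the fit. Pairwise fits with the covariate or without a mouse, the removal of GC and length, and spread and co-variation without the 3 shallow oocytes were chosen after seeing the data. Genes detected fell to 12705 at a minimum count of 5 and 11806 at 10. The top 100 genes took 7.55% per kilobase. The median SD was 0.234 for genes of 50 CPM or more and 0.43 with no filter, and the first component held 37.7% at 50 CPM or more, 12.5% with no filter and 15.3% when oocytes were thinned to 3000000 counts. After the slope on library total the correlation of Bmp15 with Zp3 was -0.358 and with Mos -0.675. After GC and length as well these were -0.358 and -0.549, Gdf9 with Nlrp5 -0.18, Zp3 with Nlrp5 -0.424 and Nlrp5 with Mos -0.443. Of the alternatives for named genes, mean CPM moved beyond its spread over mice in 1 of 984 and the within-mouse SD in 129 of 2044; the causes were not tested. No paired analysis was possible because only floxed mice were compared and no second group shares their numbers here. Depth limits levels under 0.49 to 1.72 CPM in a single oocyte, if counts are taken as independent.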

Other observations

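Levels of several gene families are given here; the families were chosen after their values were seen, and their share among abundant genes was not tested. The 13 Fbxw genes on chromosome 9 in the table had counts in every oocyte, with a median of 291 CPM per kilobase and a summed level of 5621 ± 726 CPM (SD, n = 4 mice). The 3 Oog genes had a median of 269 CPM per kilobase and the 8 Oas1 genes 181. Of 18 Nlrp genes, 13 exceeded 10 CPM and 5 were below 1 CPM. Members of these families are similar in sequence, so their counts may be shared.

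Of 152 olfactory receptor genes in the table, 109 had under 1 CPM, but 11 exceeded 10 CPM and 17 had counts in all 26 oocytes. The median level per kilobase of X-linked genes above 10 CPM was 0.927 ± 0.1 times that of autosomal genes (309 and 9129 genes, n = 4 mice), with 0.831, 0.844, 1.01 and 1.02 in mice 1 to 4. Over genes above 1 CPM it was 0.712 ± 0.059 (472 and 12855 genes), with 0.639, 0.692, 0.754 and 0.765, so the ratio depends on the minimum level.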
